A study of Mus musculus with 6 samples.

Results

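The contractile genes of the myoepithelium and Trp63, the gene of the basal transcription factor p63, were followed in cultured mouse mammary cells. The 10 genes were Acta2, Actg2, Myh11, Myl9, Mylk, Cnn1, Tagln, Lmod1, Oxtr and Trp63, chosen by symbol out of 37753 gene entries with values. Each was found on 1 entry that carried no second gene name, and all 10 passed the filter for testing, a mean of at least 1 FPKM (fragments normalized for transcript length and for the size of the library). Of these, 3 genes (Myh11, Mylk and Oxtr) had a MEKO mean under 1 FPKM and passed only through their level in MEC.

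RNA-seq of 6 cultures was compared, 3 of primary mammary epithelial cells (MEC) and 3 of tumor cell lines (MEKO), with 1 library from each. Each MEC culture pooled the glands of 3 to 5 virgin females, 10 to 12 weeks old, that carried the WAPCre transgene on a C57/Bl6J background and had both JNK genes intact. Each MEKO line was grown out of a mammary tumor of a mouse with WAPCre and deletion of Mapk8 (JNK1) and Mapk9 (JNK2), first for 2 passages on collagen I and then on ordinary dishes. The lines, 199, 233 and 336, bear mouse numbers; by number alone, mouse 199 had an adenosquamous carcinoma, mouse 336 an adenocarcinoma and mouse 233 both types. No cells were given a further treatment. The Wap promoter drives Cre in secretory luminal cells and not in the basal layer, so the transgene does not target the cells in which the contractile genes are usually found. Genotype, tumor origin, age and parity of the mouse and time in culture all separate the groups together and cannot be told apart. The labels name no batch.

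Myoepithelial cells form the outer, basal layer of the mammary ducts and alveoli and squeeze milk out of the gland when oxytocin reaches them. They contract as smooth muscle does: calcium released through the oxytocin receptor activates myosin light chain kinase, which phosphorylates the regulatory light chain of smooth muscle myosin on filaments of smooth muscle actin. Most of these genes are switched on together by serum response factor (SRF) with its coactivators of the myocardin family, whereas p63 maintains basal epithelial identity and the keratins and adhesion molecules that go with it.

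The contractile genes were abundant in all MEC cultures and nearly absent from lines 233 and 336. Their median level was 0.126% of the MEC mean in line 233 and 0.118% in line 336, and the highest of the 9 was at 1.96% and 0.397%. Line 199 stood between, with a median of 32.3% and a range from 0.105% for Oxtr to 65.2% for Acta2. It held Acta2, Actg2, Myl9, Lmod1, Tagln and Cnn1 at 65.2% down to 28.0% of the MEC mean, Mylk at 7.12%, and Myh11 and Oxtr at 0.252% and 0.105%. Trp63 followed another order, above the MEC cultures in line 199, intermediate in line 336 and close to 0 in line 233.

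Across the group comparison, limma called 3 of the 10 genes lower in MEKO (adjusted p under 0.05 and a log2 fold change beyond 0.75): Myh11, Mylk and Oxtr. All 3 passed the filter only through their level in MEC, and their MEKO values lay under the pseudocount of 1. The same rule called 7.26% of the 12461 tested genes lower, 905 genes, and 329 higher (783 and 477 with quantile normalization, which moved the median of all genes to 0.10). None of the 10 was called higher by limma, and 0 were higher with an unadjusted p under 0.05, against 2.64% of tested genes called higher. Unadjusted, 9 of the 10 genes had a limma p under 0.05, as had 3509 of the 12461 tested genes. All 9 contractile genes had their 3 MEKO libraries below all 3 MEC libraries, as had 18.7% of the tested genes. The median log2 fold change of the 10 genes was -4.60 and that of all tested genes 0.01. Fewer cells of a type and less RNA in each cell cannot be told apart in RNA from whole cultures.

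**Figure D1:**
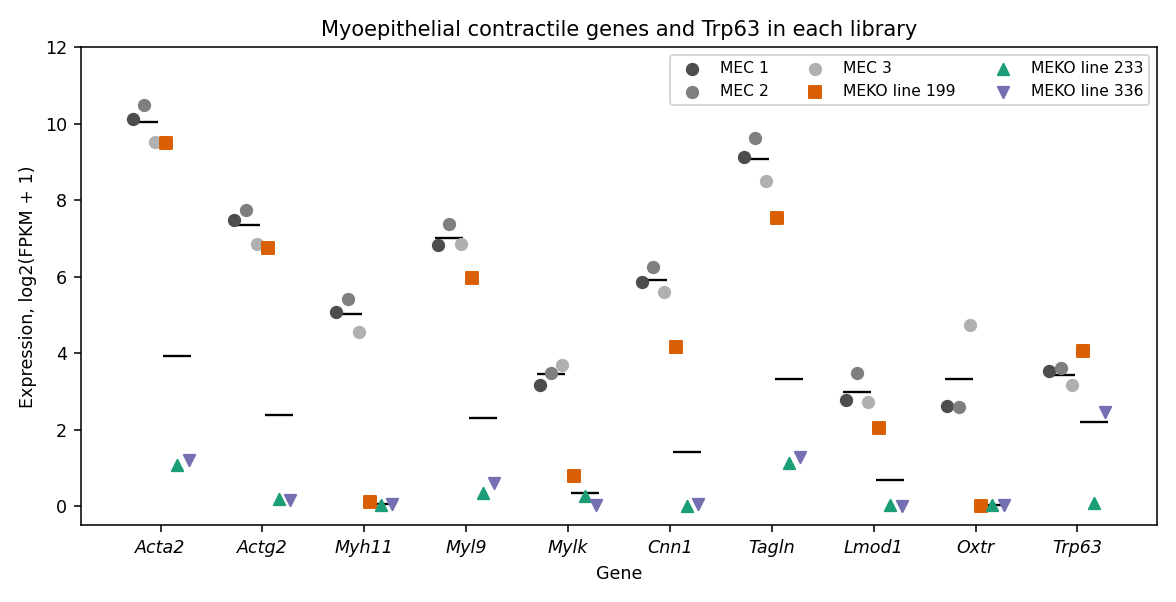
Expression of the 10 genes as log2(FPKM + 1), with 1 point per library (MEC circles, line 199 squares, lines 233 and 336 triangles) and horizontal lines at the group means. The MEKO points are below the MEC points for every gene but Trp63, and line 199 lies far above lines 233 and 336 for Acta2, Actg2, Tagln, Myl9, Cnn1 and Lmod1.

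Acta2 encodes smooth muscle alpha-actin, the usual marker of myoepithelium, and lies at chr19:34241090-34255590 on the minus strand (GRCm38). It stood at 1119.9, 1452 and 736 FPKM in MEC 1, 2 and 3, and at 719.5, 1.12 and 1.29 FPKM in lines 199, 233 and 336. Line 199 was just under the lowest MEC culture and the other 2 lines were near 0. The group means were 1103 ± 358 and 241 ± 415 FPKM (SD, n = 3 each), and the log2 fold change of -6.13 (SE 2.21) was not past the threshold (limma, adjusted p = 0.136). Without line 199 the change was -8.91 with an adjusted p of 0.000689.

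Actg2 encodes the enteric smooth muscle gamma-actin (chr6:83512905-83536265, minus strand) and took the same course. In the MEC cultures its level was 179, 213 and 115 FPKM, and lines 199, 233 and 336 had 107, 0.142 and 0.129 FPKM. The log2 fold change was -4.99 (SE 1.75; limma, adjusted p = 0.127), and -7.18 without line 199 (adjusted p = 0.000909). Actg2 ran at 14.7% to 16.0% of Acta2 in the MEC libraries, 14.9% in line 199, 12.6% in line 233 and 9.97% in line 336, so the ratio of the 2 actins changed far less than their levels.

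Myh11, the heavy chain of smooth muscle myosin (chr16:14194535-14291372, minus strand), separated from the actins. It measured 32.7, 41.8 and 22.4 FPKM in the MEC cultures and 0.0812, 0.0148 and 0.0382 FPKM in lines 199, 233 and 336. All 3 lines were near 0, line 199 included. Myh11 fell by 4.95 on the log2 scale (SE 0.25, limma, adjusted p = 0.000715) and was called in every alternative analysis. Relative to Acta2, Myh11 was at 2.88% to 3.05% in the MEC libraries and at 0.0113% in line 199.

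Myl9 encodes the smooth muscle regulatory light chain on which the kinase acts (chr2:156775420-156781658, plus strand). It stood at 112.5, 164 and 114.5 FPKM in the MEC cultures and at 61.7, 0.280 and 0.518 FPKM in lines 199, 233 and 336. Line 199 was under every MEC culture, at 47.3% of their mean, and the other lines were near 0. The log2 fold change was -4.71 (SE 1.46; limma, adjusted p = 0.0966), and -6.54 without line 199 (adjusted p = 0.000689).

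Mylk, the myosin light chain kinase (chr16:34745210-35002420, plus strand), was the other motor component low in every line. Its level was 7.96, 10.2 and 12.0 FPKM in the MEC cultures and 0.714, 0.196 and 0.0260 FPKM in lines 199, 233 and 336. Line 199 was the highest of the lines but still at 7.12% of the MEC mean. Mylk fell by 3.09 on the log2 scale (SE 0.27, limma, adjusted p = 0.00273), and this call also held in every alternative.

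Among the actin-associated genes, Cnn1 encodes calponin 1, which restrains the myosin ATPase (chr9:22099216-22109630, plus strand). Cnn1 was at 57.5, 75.0 and 47.6 FPKM in the MEC cultures and at 16.8, 0.0099 and 0.0372 FPKM in lines 199, 233 and 336. Line 199 lay clearly under every MEC culture and far above the other lines. The log2 fold change was -4.50 (SE 1.10), with an adjusted p of 0.0520 by limma. The adjusted p was 0.0469 with quantile normalization, 0.0493 with upper-quartile scaling and 0.000898 without line 199, so this call depended on the setting.

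Tagln, which encodes the actin cross-linker transgelin (chr9:45929619-45936058, minus strand), was the second most abundant of the 10. It stood at 559, 792 and 361.5 FPKM in the MEC cultures and at 184.5, 1.18 and 1.46 FPKM in lines 199, 233 and 336. Line 199 was below every MEC culture and the other lines were near 0. The log2 fold change was -5.77 (SE 1.69; limma, adjusted p = 0.0838) and -7.88 without line 199 (adjusted p = 0.00120). Of the Tagln exon bases, 67.9% overlap genes on the opposite strand, Pcsk7 and Gm48529, and whether counting used strand is not stated. Pcsk7 itself was between 4.04 and 9.56 FPKM in every library.

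Lmod1, leiomodin 1, which nucleates actin filaments in smooth muscle (chr1:135324807-135368065, plus strand), was among the least abundant. Its level was 5.86, 10.2 and 5.56 FPKM in the MEC cultures and 3.09, 0.0271 and 0.00503 FPKM in lines 199, 233 and 336. Once more only line 199 came near the lowest MEC culture. The log2 fold change of Lmod1 was -2.30 (SE 0.59; limma, adjusted p = 0.0587), and -2.97 without line 199 (adjusted p = 0.00446).

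Oxtr, the oxytocin receptor and so the input of the pathway (chr6:112473683-112489943, minus strand), varied most between MEC cultures. It was at 5.11, 5.05 and 25.9 FPKM in MEC 1, 2 and 3 and at 0.0125, 0.0151 and 0.0189 FPKM in the lines. MEC 3 was far above the other cultures, and no line approached any of them. Oxtr fell by 3.30 on the log2 scale (SE 0.59; limma, adjusted p = 0.0219). This call was lost without MEC 1 (adjusted p = 0.0640), MEC 2 (0.0583), line 233 (0.0630) or line 336 (0.0626), while the direction stayed the same.

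Trp63 (chr16:25683763-25892102, plus strand) did not separate the groups. It stood at 10.6, 11.3 and 7.94 FPKM in the MEC cultures and at 15.7, 0.0633 and 4.47 FPKM in lines 199, 233 and 336. One line was above every MEC culture, one below all of them at 44.9% of their mean and one at 0.635%. The log2 fold change was -1.24 (SE 0.93; limma, adjusted p = 0.422; exact permutation test, two-sided, p = 0.4), and it lay between -2.17 and -0.19 over the alternatives, the latter without line 233. Gene-level values do not separate the Trp63 isoforms with and without the transactivation domain.

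For each of the contractile genes the exact permutation test (two-sided) gave p = 0.1, the smallest value possible with 3 against 3. No 100-base window of the longest coding transcript of each of the 10 genes was shared exactly with a transcript of another gene read in the same orientation. The reverse complement was not searched, so this does not cover genes on the opposite strand. Such overlap exists for Tagln, as given above, and for Mylk, where 6.85% of the exon bases overlap E130310I04Rik and Gm21691. Without the strand setting, reads there cannot be assigned to a strand.

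The lines were then taken singly, counting a gene as well below MEC when its log2(FPKM + 1) was at least 1 under the lowest MEC library. A gene with a lowest MEC value under 1 FPKM cannot qualify, and the shares of tested genes given here include such genes. For the 10 genes the lowest MEC value was 5.05 FPKM or more. By this measure 4 of the 10 genes were well below MEC in line 199, where 9.22% of all tested genes were. In line 233 all 10 were (11.0% of tested genes), and in line 336 all but Trp63 were (11.5%). Acta2, Actg2, Myl9, Tagln and Lmod1 were well below in lines 233 and 336 but not in line 199, a pattern of 3.31% of tested genes. Tagln and Cnn1, on either side of this limit, were close in line 199, at 32.3% and 28.0% of the MEC mean. Myh11, Mylk, Cnn1 and Oxtr were well below in all 3 lines, as were 4.51% of tested genes. These are single lines, so the differences between them have no replicate and were not tested.

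**Figure D2:**
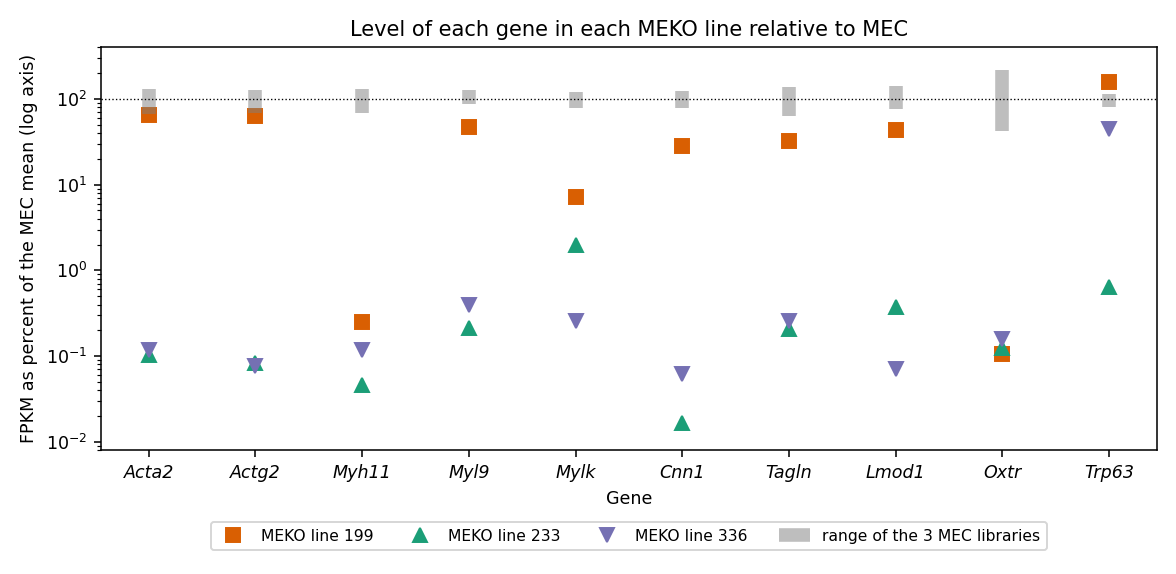
Level of each gene in lines 199, 233 and 336 as a percent of its MEC mean, on a log axis, with grey bars for the range of the 3 MEC libraries. For line 199 the values run from 0.105% for Oxtr to 157% for Trp63, and for the contractile genes lines 233 and 336 reach at most 1.96% and 0.397%.

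The abundance order was stable in MEC: per transcript length, Acta2 was above Tagln, then Actg2, Myl9, Cnn1 and Myh11, each in 3 of 3 libraries. Below Myh11 the order of Oxtr, Mylk and Trp63 differed between cultures, and Lmod1 was under Trp63 in all 3. Line 199 kept the order of the first 5 genes, but Trp63 and Lmod1 came next and Myh11 and Oxtr last. Tagln changed its standing against Acta2, from 49.1% to 54.5% of Acta2 in MEC to 25.6%, 105% and 113% in lines 199, 233 and 336, with both genes near 1 FPKM in the last 2. The summed level of the 10 genes was 2091, 2775 and 1449 FPKM in the MEC cultures, 1109 FPKM in line 199, 3.05 FPKM in line 233 and 7.99 FPKM in line 336.

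The smooth muscle isoforms were next set against their non-muscle counterparts in the same library, a ratio on which library scaling has no influence. Acta2 and Actg2 made up 23.6%, 24.9% and 19.9% of the summed FPKM of 5 actin genes (with Actc1, Actb and Actg1) in the MEC cultures, against 16.4%, 0.0546% and 0.0511% in lines 199, 233 and 336. The groups did not overlap (22.8 ± 2.61% against 5.51 ± 9.45%, SD, n = 3; exact permutation test, two-sided, p = 0.1). Acta1 was not analysed here.

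Myh11 gave 9.49%, 10.1% and 6.78% of the summed FPKM of Myh11, Myh9, Myh10 and Myh14 in MEC and 0.0355%, 0.00833% and 0.0235% in lines 199, 233 and 336. These shares did not overlap either (exact permutation test, two-sided, p = 0.1). Myl9 gave 7.50%, 10.8% and 7.21% of the light chains Myl9, Myl12a and Myl12b in MEC, and 7.30%, 0.0513% and 0.0723% in the lines. Here line 199 was within the MEC range, so the groups overlapped (exact permutation test, two-sided, p = 0.2).

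**Figure D3:**
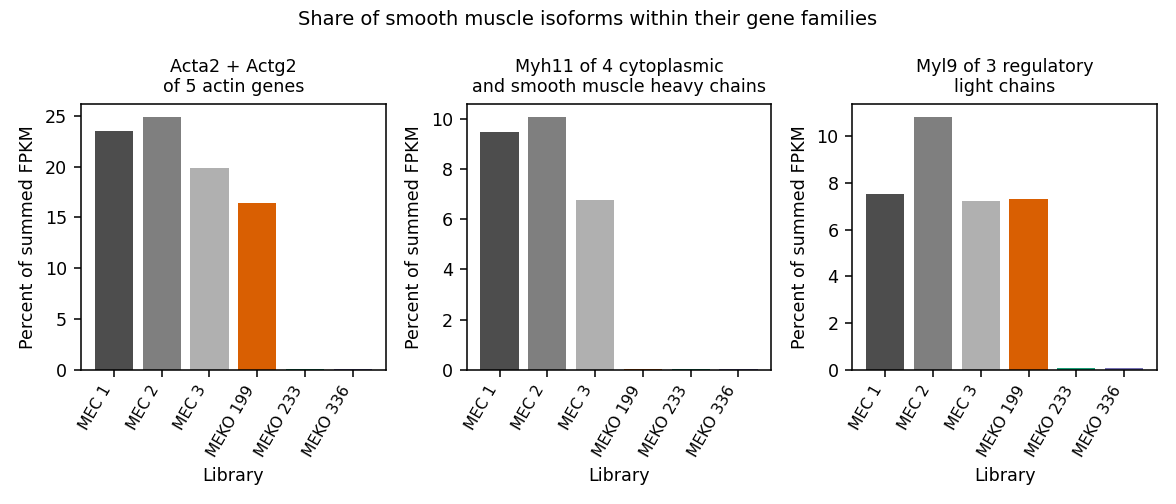
Percent of the summed FPKM of each family held by the smooth muscle isoforms, as 1 bar per library, for actins, myosin heavy chains and regulatory light chains. Line 199 keeps 16.4% of actin and 7.30% of light chain in the smooth muscle form but 0.0355% of heavy chain.

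Of the other actin and myosin genes, mostly non-muscle paralogues, 9 were tested. At an unadjusted p under 0.05, 5 were lower and 0 higher. Of the 9, limma called 3 lower (Actg1, Myl6 and Myl12a, with log2 fold changes of -1.16, -1.05 and -1.09) and 0 higher. These 3 are 33.3%, against 7.26% of all tested genes called lower. The median log2 fold change of the 9 was -0.84. The count was 0 without MEC 1 or MEC 2, and 1 without MEC 3 or line 336. Actb, the main cytoplasmic actin, was at 3145, 3767 and 2314 FPKM in the MEC cultures and 3549, 1956 and 2221 FPKM in lines 199, 233 and 336. Actb thus overlapped between the groups (limma, adjusted p = 0.560), where Acta2 did not.

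Further partners of the contractile apparatus include tropomyosins, calponins, LIM proteins, phosphatase subunits and channels. Of 26 tested, limma called 12 lower (46.2%, against 7.26% of all tested genes) and 0 higher. At an unadjusted p under 0.05, 18 were lower and 0 higher, and the median log2 fold change of the 26 was -1.21. The 12 were Tpm2, Csrp1, Pdlim3, Ppp1r14a, Kcnmb1, Pdlim7, Tagln2, Actn1, Synpo2, Tpm4, Cnn3 and Tpm1. The count was 3 without MEC 1 or MEC 2, 7 without MEC 3 and 6 without line 233 or line 336. Among the 12, Pdlim3, Kcnmb1, Synpo2 and Ppp1r14a had a MEKO mean under 1 FPKM and passed the filter only through their level in MEC.

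Tpm2, the beta-tropomyosin of muscle thin filaments, had 417, 546 and 379 FPKM in MEC and 123, 10.1 and 18.9 FPKM in lines 199, 233 and 336 (log2 fold change -3.88, limma, adjusted p = 0.0379). Csrp1, a LIM protein of actin filaments, had 524, 701 and 487 FPKM in MEC and 123, 13.5 and 49.2 FPKM in the lines (-3.66, limma, adjusted p = 0.0300). In both, line 199 was the highest of the lines, as for Acta2. At 27.5% and 21.5% of the MEC mean, however, Tpm2 and Csrp1 were well below MEC in line 199, where Acta2 was not. Pdlim3, a Z-line LIM protein, was instead listed at 0 in lines 199 and 233 and at 0.0774 FPKM in line 336, against 7.42, 9.74 and 4.17 FPKM in MEC (-2.92, limma, adjusted p = 0.00429). Ppp1r14a, an inhibitor of myosin phosphatase, was at 10.4, 17.7 and 5.57 FPKM in MEC and at 0.400, 0.403 and 2.19 FPKM in the lines (-2.60, limma, adjusted p = 0.0258).

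Srf, which binds the promoters of the contractile genes, was at 19.7, 25.4 and 16.6 FPKM in the MEC cultures and at 18.0, 11.0 and 12.3 FPKM in lines 199, 233 and 336. Line 199 was within the MEC range and the other lines somewhat below it (log2 fold change -0.55, SE 0.24; limma, adjusted p = 0.199). Mrtfa, a coactivator that responds to free actin, had 24.9, 18.9 and 26.5 FPKM in MEC and 23.0, 10.2 and 10.3 FPKM in the lines (log2 fold change -0.74; limma, adjusted p = 0.207). Myocd, the founding coactivator, was under 0.708 FPKM in every MEC culture, at most 0.00756 FPKM in every line, and too low to be tested.

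Of 10 tested regulators of this kind limma called 0 lower, also at an unadjusted p under 0.05, and 1 higher, Klf4. Of all tested genes 7.26% were called lower and 2.64% higher. Klf4, a factor that opposes smooth muscle gene expression, had a log2 fold change of 1.22 (limma, adjusted p = 0.0487). Klf4 was at 10.0, 12.3 and 7.83 FPKM in MEC and at 30.5, 29.5 and 16.1 FPKM in lines 199, 233 and 336, above every MEC culture in each line. Its call was lost in all alternatives but quantile normalization, sample weights and leaving out line 336, with adjusted p from 0.0509 to 0.164. The median log2 fold change of the 10 was 0.20, or -0.01 without line 199.

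**Figure D4:**
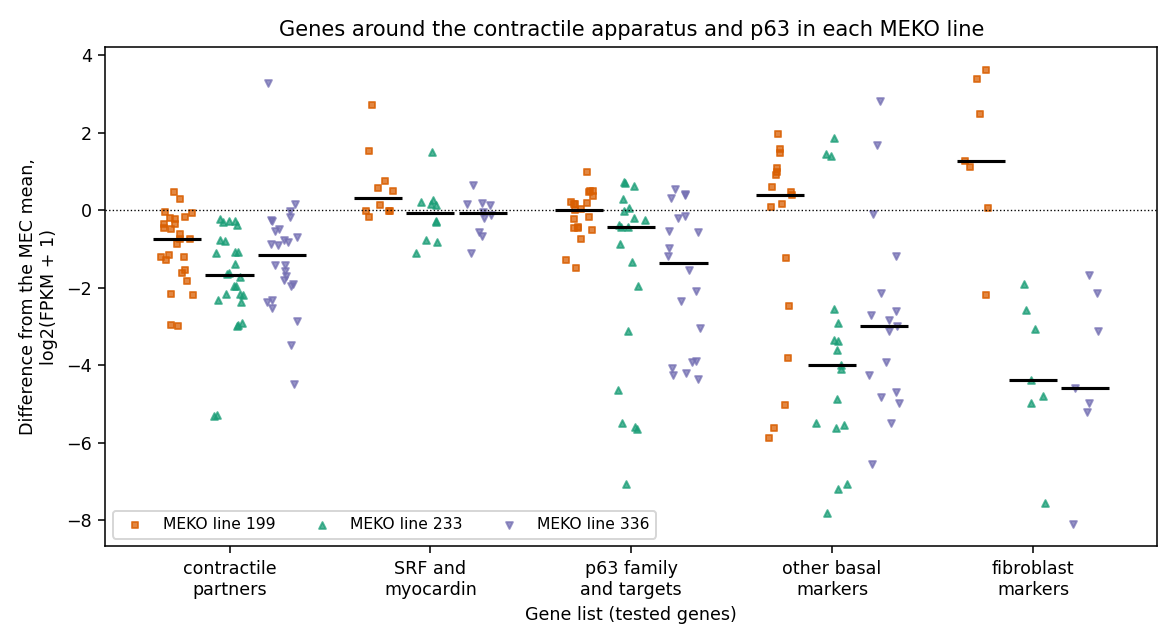
Difference of log2(FPKM + 1) from the MEC mean in lines 199, 233 and 336 for 5 gene lists, with 1 point per tested gene and a line at each median. Contractile partners have medians of -0.75, -1.68 and -1.16, SRF regulators 0.31, -0.07 and -0.08, and other basal markers 0.39, -3.99 and -2.98.

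Promoter sequence was examined because the contractile genes share SRF as a regulator, whose motif is the CArG box. RefSeq promoters (GRCm38.p6) were at hand for 6 of the 10 genes, Acta2, Cnn1, Lmod1, Myl9, Mylk and Oxtr, as the 250 bases before the RefSeq start. These starts differ from the GENCODE gene borders given above and lie inside them, by 6 bases for Lmod1, 37 for Cnn1, 44 for Myl9, 118 for Oxtr, 217 for Acta2 and 39740 for Mylk, whose RefSeq entry is thus an internal start. A strict CArG box was found in 1 of the 6, Myl9, and in 1.47% of 32851 promoters. A looser match that lets at most 1 of the 6 central bases be G or C, chosen after the strict search had been seen, was found in 2 of the 6, Myl9 and Acta2, and in 8.59% of promoters. The other 4 windows held neither form, and these belong to genes that line 199 kept in part (Lmod1 and Cnn1) as well as to Mylk and Oxtr. Both strands are covered, since the motif is its own reverse complement. The windows with matches read as follows, whole up to the first annotated exon for Myl9 and as the surroundings of each match for Acta2, with the matches in capitals.
Myl9, chr2:156775214-156775419, plus strand: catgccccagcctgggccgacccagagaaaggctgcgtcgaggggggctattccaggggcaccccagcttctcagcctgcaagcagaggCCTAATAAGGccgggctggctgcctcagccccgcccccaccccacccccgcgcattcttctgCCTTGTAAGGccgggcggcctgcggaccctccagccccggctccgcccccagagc
Acta2, chr19:34255438-34255467, minus strand: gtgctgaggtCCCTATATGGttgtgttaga
Acta2, chr19:34255388-34255417, minus strand: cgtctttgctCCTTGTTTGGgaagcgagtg
The first Myl9 match is the strict one. The matches lie 161 and 99 bases before the RefSeq start of Myl9, and 84 and 34 bases before that of Acta2, where they fall inside the longer GENCODE gene. A match describes these letters only, and no binding was measured.

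Among 20 tested genes of the p63 family, its regulators and its targets, limma called 1 lower (5% against the 7.26% of all tested genes), the laminin chain Lamb3 (log2 fold change -2.77, adjusted p = 0.0476), and 0 higher, with 4 lower and 0 higher at an unadjusted p under 0.05. The count was 0 without any 1 MEC culture and without line 233 or line 336, and 9 without line 199. It was also 0 with a pseudocount of 0.1, no variance trend, no filter or a filter at a mean of 5 FPKM, and 8 with sample weights. None of the 20 was well below MEC in line 199, 8 were in line 233 and 10 in line 336. Trp63 was at 0.0633 FPKM in line 233 and 4.47 FPKM in line 336. Single genes of the list went both ways between these lines. Igfbp3 was at 0.137 FPKM in line 233 and 2.06 FPKM in line 336, and Itga6 at 85.4 and 21.5 FPKM. Whether the listed genes follow Trp63 was not tested. Col17a1, a hemidesmosome collagen, was at 30.6, 27.8 and 18.2 FPKM in MEC and at 32.2, 0.0391 and 0.549 FPKM in lines 199, 233 and 336 (limma, adjusted p = 0.211).

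The basal keratin genes Krt5 and Krt14, members of that list and of the basal markers, showed the same split. Krt5 was at 435, 339 and 201 FPKM in MEC, 608 FPKM in line 199, 1.33 FPKM in line 233 and 15.3 FPKM in line 336 (limma, adjusted p = 0.282). Krt14 was at 460, 393 and 289 FPKM in MEC and at 521, 7.36 and 24.0 FPKM in the lines (limma, adjusted p = 0.230). For both genes line 199 was above every MEC culture, as it was for Trp63.

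Of 17 other basal and myoepithelial markers, limma called 5 lower (29.4%, against 7.26% of all tested genes) and 0 higher. At an unadjusted p under 0.05, 5 were lower and 1 was higher. The 5 were Igfbp5, Sox10, Dkk3, Mme and Id4, with log2 fold changes from -6.54 to -3.26, and all 5 were also well below MEC in line 199. Of these, Igfbp5 and Sox10 had a MEKO mean under 1 FPKM and passed the filter only through their level in MEC. Sox10, a factor of the basal and progenitor compartment, was at 42.3, 38.4 and 67.4 FPKM in MEC, listed at 0 in line 199, and at 0.0474 and 0.0941 FPKM in the others (limma, adjusted p = 0.000587). Mme, a surface peptidase of myoepithelium, was at 27.1, 23.7 and 77.0 FPKM in MEC and at 0.161, 1.19 and 4.34 FPKM in the lines (limma, adjusted p = 0.0179). Of the 17 markers, 9 were above every MEC culture in line 199 (Krt5, Krt14, Cdh3, Sparc, Snai2, Nrg1, Cav1, Vim and Pdpn). A further 2 were within the MEC range there and 6 below it. In lines 233 and 336, 14 of the 17 were below it in each. Line 199 thus held the keratins, Trp63 and several other basal markers without Sox10, Mme or Oxtr. The count of 5 called lower was 3 without any 1 MEC culture or without line 233, and 13 without line 199.

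Markers of other cell types that express smooth muscle actin followed the contractile genes only in part. The summed level of 10 fibroblast markers was 383, 476 and 547 FPKM in MEC, 1459 FPKM in line 199, 3.13 FPKM in line 233 and 2.18 FPKM in line 336. Most of that in line 199 was Col1a1 (600 FPKM, against 44.2 to 74.7 in MEC), Col1a2 (408 FPKM, against 28.7 to 39.3 in MEC) and Postn (321 FPKM, against 243 to 445 in MEC), and Vim was at 496 FPKM there. Of the 10 markers, 6 were above every MEC culture in line 199 (Col1a1, Col1a2, Col3a1, Col6a3, Pdgfra and Fbln1), Postn was within their range, and Dcn, Lum and Fap were below it, at 0.311, 0.0264 and 0.124 FPKM. Of 7 tested fibroblast markers limma called 1 lower, Dcn (14.3%, against 7.26% of all tested genes), and 0 higher. At an unadjusted p under 0.05, 2 were lower and 0 higher. Dcn had a MEKO mean under 1 FPKM and passed the filter only through its level in MEC. The count was 7 without line 199 and 3 with sample weights. It was 0 with a filter at a mean of 5 FPKM, which left 5 markers to test and took Dcn out.

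The summed level of the 10 pericyte and vascular smooth muscle markers was 94.1, 114 and 104 FPKM in MEC and 32.5, 7.75 and 12.5 FPKM in lines 199, 233 and 336. Mcam was most of the MEC sum, at 71.1, 82.0 and 89.6 FPKM, and had 10.8, 3.04 and 3.24 FPKM in the lines. Notch3 was lowest in line 199, at 1.93, 4.57 and 6.58 FPKM in the lines. Rgs5 was between 0.729 and 2.43 FPKM in MEC and at or under 0.0392 FPKM in every line, and Pdgfrb was at 19.0 FPKM in line 199, against 3.11 to 11.6 FPKM in MEC. Endothelial markers summed to 20.1, 23.9 and 2.41 FPKM in MEC 1, 2 and 3, so the culture with the highest Oxtr had the fewest, and to 0.216 to 2.11 FPKM in the lines. Of 9 tested luminal markers limma called 6 lower (66.7%, against 7.26% of all tested genes) and 0 higher. At an unadjusted p under 0.05, 7 were lower and 0 higher. The count called lower was 4 without MEC 1 or MEC 2, 5 without MEC 3 and 7 without any 1 line. It includes Elf5, which passed the filter only through its level in MEC. All 9 were well below MEC in line 199, 6 in line 233 and 7 in line 336. Epcam, an epithelial adhesion gene, was at 252, 144 and 128 FPKM in lines 199, 233 and 336, against 519 to 549 FPKM in MEC. Krt8 was at 230.1, 539 and 447 FPKM in the lines, against 1844 to 3406 FPKM. Cldn3 in line 336 was above every MEC culture. The part of any of these cell types in the contractile gene values was not tested.

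Genes with the most similar course over the 6 libraries were sought by the root mean square difference of log2(FPKM + 1), each gene taken relative to its MEC mean. For Acta2 they were Postn (0.88), Prkcdbp (1.57) and Krt17 (1.79). Postn, a matrix protein, was at 243, 279 and 445 FPKM in MEC, 321 FPKM in line 199, 0.667 FPKM in line 233 and 0.149 FPKM in line 336. For Trp63 the differences were smaller, 0.31 for Acpp, 0.32 for Serpinh1 and 0.38 for Lix1l. Serpinh1, a collagen chaperone, stood at 211, 210.5 and 233 FPKM in MEC and at 370, 26.0 and 77.1 FPKM in lines 199, 233 and 336. The scale of a difference grows with the size of the change, so the 2 sets are not comparable in closeness.

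The deleted genes were checked in every library at the level of the whole gene. Mapk8 was at 23.1, 25.1 and 19.2 FPKM in MEC and at 5.93, 3.12 and 1.37 FPKM in lines 199, 233 and 336, and Mapk9 at 24.4, 21.5 and 22.1 FPKM in MEC and at 7.62, 3.15 and 3.07 FPKM in the lines. Both fell (log2 fold changes -2.52 and -2.17; limma, adjusted p = 0.0146 and 0.0122). Line 199, with the most contractile gene RNA of the lines, also kept the most Mapk8 and Mapk9, 26.4% and 33.6% of the MEC mean, and the part of cells without the deletion in its values was not tested. Values of the whole gene do not show whether the remaining RNA held the deleted exons. By immunoblot, the paper reports no JNK protein in the tumor cells, those of adenosquamous type included. FPKM hold no read numbers, so absolute depth is unknown; depth relative to MEC 1, read from the steps of small values, was lowest in MEC 3 (0.92) and highest in line 199 (1.30), and 17343 to 18741 entries were above 0.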

How the data were processed

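Gene expression was measured by RNA-seq in 3 MEC and 3 MEKO cultures, grouped by their titles, with 1 library each and no technical repeats. Reads had been trimmed (Trimmomatic), placed on the mm10 genome (TopHat2 2.0.14, Bowtie2) and summarized per gene by Cufflinks 2.2.1. The deposited values are FPKM, which the authors scaled to the length of the transcript and the size of the library. Reads were not analysed here, and the strand setting is not given in the sources used here. Low genes are measured least precisely, and no interval or floor could be computed.

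The table held 37755 entries, 2 of them without values, 15940 at 0 in every library and 466 with joined names. The 12461 entries with a mean of at least 1 FPKM entered one limma 3.58.1 model (R 4.3.3) of log2(FPKM + 1) with trended variances, and p-values were adjusted by Benjamini-Hochberg. The pseudocount of 1 understates fold changes of low genes. A call needed an adjusted p under 0.05 and a log2 fold change beyond 0.75. The script was tested on simulated data. Exact permutation tests (two-sided) used scipy 1.17.1. Positions are from GENCODE M21 on GRCm38, promoters from RefSeq on GRCm38.p6. The text names every member, the called genes of each list (up to 4 with values), genes whose role is described, and the 3 nearest profiles of Acta2 and Trp63. The genes and the lists were chosen with earlier results of these data known. A gene and a gene list taken up at first are not reported here. Alternatives were another pseudocount, filters, scalings, no trend, sample weights and leaving out each library.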

Additional observations from a re-analysis of the deposited data

How the results depend on the processing

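No direction reversed for any of the 10 genes in any alternative run. Of the 10, limma called 3 lower in the reported analysis, 4 with quantile normalization or upper-quartile scaling, 9 with sample weights, and 2 to 9 when 1 library was left out, with 9 only without line 199. The 6 genes that passed the threshold without line 199 but not with all libraries were Acta2, Actg2, Myl9, Cnn1, Tagln and Lmod1. Lmod1 has no value with the filter at a mean of 5 FPKM. Over all tested genes 905 were called lower and 329 higher; sample weights gave 1378 and 600, the filter at a mean of 5 FPKM gave 501 lower, and quantile normalization gave 783 lower and 477 higher. Leaving out 1 library gave 251 (without MEC 1) to 1340 (without line 199) lower and 49 to 546 higher. The 5 pathway lists held 22 called genes, 39 with sample weights and 6 (without MEC 1 or MEC 2) to 40 (without line 199) with 1 library left out. The MEKO minus MEC difference in the share of smooth muscle actins was -22.7 to -14.6 percentage points with 1 library left out, -9.77 to -8.11 for Myh11 and -8.45 to -4.83 for Myl9. No paired analysis was possible because the groups share no replicate number. Where a call was lost with fewer libraries, fewer samples were tested.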

Other observations

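Among the genes around the contractile apparatus, 1 stood out in line 336 alone and was chosen after its values had been seen. Pgm5, a protein of smooth muscle adhesion plaques, was at 0.592, 1.09 and 0.771 FPKM in MEC, 0.0728 and 0.483 FPKM in lines 199 and 233, and 16.5 FPKM in line 336. Line 336 thus held more Pgm5 than any MEC culture while its Myh11, Cnn1 and Oxtr were near 0. Over all 3 lines limma gave Pgm5 a log2 fold change of 0.75 (adjusted p = 0.667), and the value of line 336 alone has no replicate.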
